A study of Mus musculus with 6 samples.

Results

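Translation factors are the proteins that load ribosomes onto messenger RNA and drive them along it, and their transcripts were followed here in starved mouse embryonic fibroblasts. Genes were taken by symbol: every probe set that the platform annotation gives 1 symbol beginning with Eif1 to Eif6, Eef1 or Eef2 was included, and the eIF2 kinases (Eif2ak), the eIF4E-binding proteins (Eif4ebp), the Y-linked Eif2s3y and Eef1e1, a component of the synthetase complex, were left out. This gave 44 of the 12393 genes measured, on 99 probe sets. Eef1g, Eif3j1, Eif3j2 and Eif4a3 occurred only on probe sets with several symbols and were not analysed here. The rule used symbols alone and no expression value, but it was set with earlier results of these data known.

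The cells are connective tissue cells grown from mouse embryos, given as wild type in the labels, with no further allele named. One group was starved for 6 h and hybridised to 3 arrays, and the control group grew in normal medium and was hybridised to another 3. The labels do not say whether amino acids, glucose, serum or all of them were withdrawn. Each sample is titled a biological replicate, without a statement of what was repeated (culture, embryo or day), so the p-values speak of the variation among these arrays, part of which may be technical. Of 10 fibroblast markers 8 lay above 9 on the log2 scale, and Thy1 and Fap did not. None of the 7 macrophage and blood, 5 epithelial and 4 endothelial markers measured lay above 9, with a highest mean of 6.02. The mean over the fibroblast markers lay between 10.78 and 10.85 in control arrays and between 10.92 and 10.99 in starved arrays; for the blood markers it lay between 4.29 and 4.32, and between 4.22 and 4.45. For the epithelial markers these ranges were 4.10 to 4.17 and 4.14 to 4.25, and the endothelial markers lay between 3.87 and 3.97 in control arrays and lower in every starved array, down to 3.74. Of the fibroblast markers 6 rose and 3 fell, and Cd68 and Cdh1 rose and Pecam1 and Kdr fell among those of other cells; their part in the results was not tested. In RNA from whole cultures, fewer cells of a kind and less RNA per cell cannot be told apart.

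Initiation begins when eIF2 brings the initiator tRNA to the small ribosomal subunit, which eIF3 holds as a scaffold, while the eIF4 proteins bind the cap of the messenger RNA and unwind its start. The elongation factors eEF1A and eEF2 then deliver the charged tRNAs and move the ribosome along. In starved cells this machinery is known to be restrained mainly through its proteins, by phosphorylation of eIF2 and by binding of eIF4E to its inhibitors, neither of which a transcript array measures. Each level given is a log2 array signal, and an SD is that of the 3 arrays of a group. Each difference is the starved mean less the control mean of log2 signals, tested with limma, with p-values adjusted by the Benjamini-Hochberg method over all 12393 genes and called below 0.05.

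Single factors differed between starved and control cells, while most of the machinery did not pass the test. Of the 44 genes 5 rose, 8 fell and 31 did not pass. The 13 called genes are 29.5% of the members, against a background of 44.1% of all genes called, 22.1% higher and 22.0% lower. With the dimmest 40% of genes left out, 4886 of 7436 genes were called, a higher share. Of the members 42 remained there, so 44.1% is a low background for most of them. The groups did not overlap for 18 members, against 54.0% of all genes, with starved arrays above for 7 (25.7% of all genes) and below for 11 (28.4%). At an adjusted p below 0.01, which 31.7% of all genes reached, 3 members were higher and 7 lower. The median difference of the members was −0.02 (all genes −0.05), and 5 members reached a difference of 0.5 in size, which is 11.4% against 18.4% of all genes. The largest falls were those of Eif1a, a factor of start codon scanning, and Eif4e, the cap-binding protein. Among the rises the largest was that of the helicase Eif4a2. The number of risen members went from 5 to 3 without control replicate 3.

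**Figure D1:**
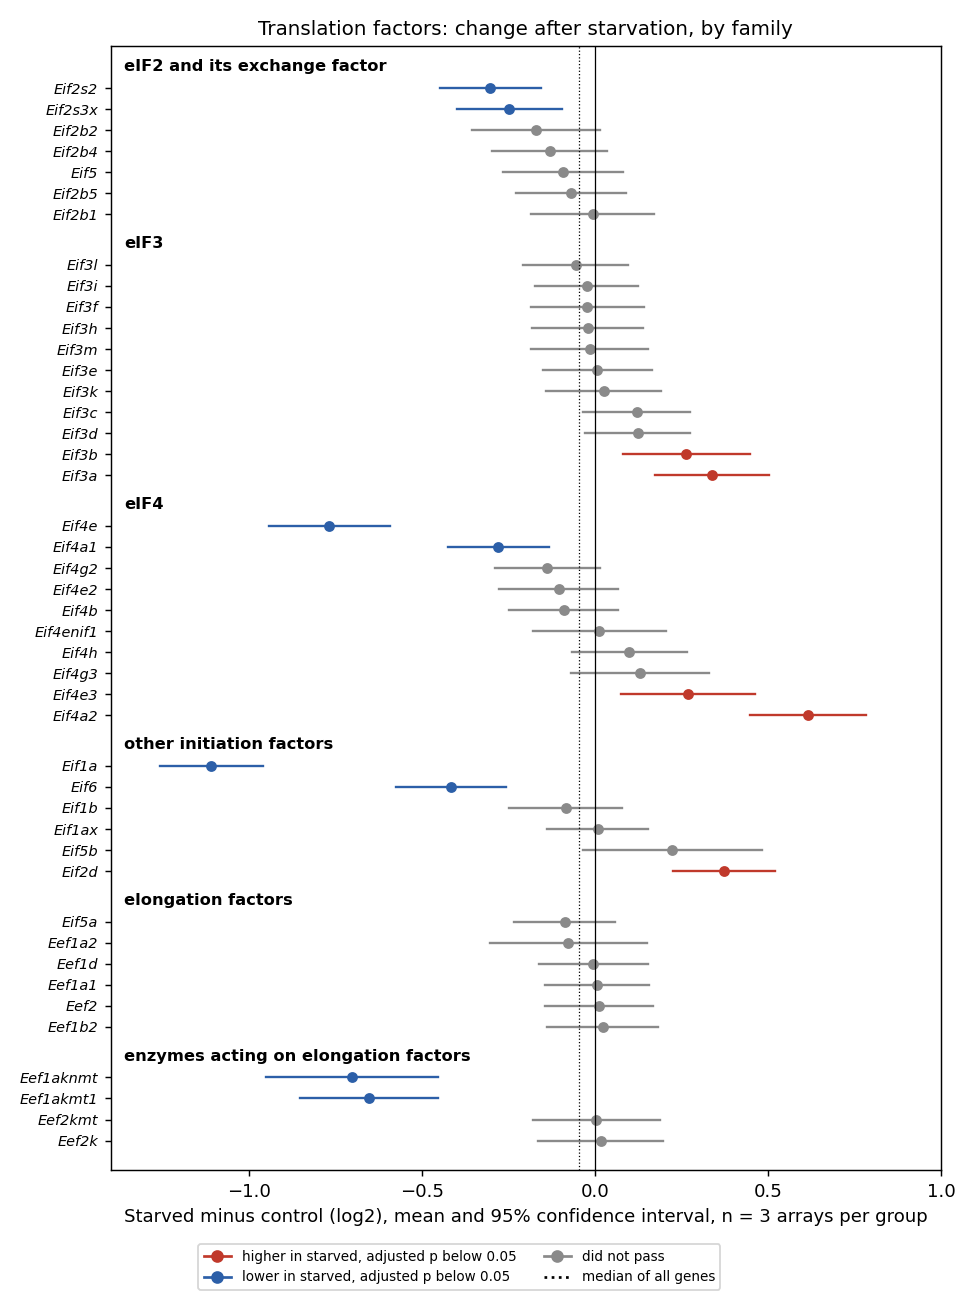
Each point is the starved minus control difference (log2) of 1 member with its 95% confidence interval, ordered by family, and the dotted line is the median of all genes. The 6 elongation factors and most eIF3 subunits lie within 0.1 of 0, whereas Eif1a, Eif4e, Eef1aknmt and Eef1akmt1 lie below −0.6 and Eif4a2 lies above 0.6.

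These directions hold relative to the bulk of the genes on the arrays, because the deposited normalization gives all arrays nearly the same signal distribution. The mean of the poly-A spike-ins, bacterial transcripts that labelling kits add to the RNA, was 0.43 higher in starved arrays, and that of the hybridization spike-ins 0.19 higher. The labels do not say whether equal amounts of spike-in per RNA were added, so centring on them is an alternative scale and not a measure of total messenger RNA. When arrays were centred by their poly-A spike-ins the median of all genes became −0.47, 0 members rose and 38 fell, against 82.2% of all genes called, 6.94% higher and 75.2% lower. With the hybridization spike-ins 1 member, Eif4a2, rose and 21 fell, against 62.7% of all genes called, 13.5% higher and 49.2% lower. With each array's median 4 rose and 11 fell, against 47.9% called, 19.8% higher and 28.1% lower. All 8 falls kept their call under these 3 centrings. Each centring moves all genes by the same amount, so the spacing between members is the same under all of them.

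**Figure D2:**
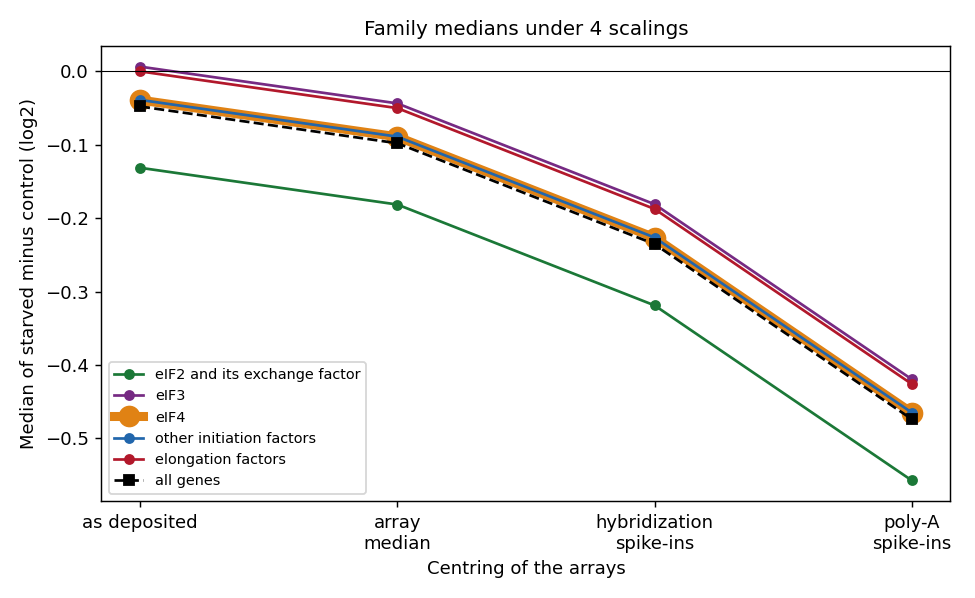
The median difference of 5 families, without the enzymes acting on elongation factors, (log2, vertical axis) is plotted for the values as deposited and for 3 centrings of the arrays, with the median of all genes as a dashed line. All lines run in parallel, and of these 5 the line of eIF2 and its exchange factor lies lowest, at −0.13 in the deposited values; the lines of eIF4 and of the other initiation factors coincide.

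Transcripts of the eIF4 genes held both falls and rises. Of the 10 eIF4 genes 2 rose, 2 fell and 6 did not pass, and their median difference was −0.04. The called share was 40%, against 44.1% of all genes, 22.1% higher and 22.0% lower. Eif4e encodes the protein that binds the cap and is the target of the 4E-binding proteins. Its log2 signal was 11.08, 11.04 and 11.04 in control arrays and 10.30, 10.16 and 10.40 in starved arrays. Every starved array lay below every control array, and Eif4e fell 1.70-fold (difference −0.77, SE 0.08, adjusted p = 3.42e-05 with limma). All 3 probe sets of Eif4e fell, by 0.77, 0.73 and 0.64, from control levels of 11.05, 8.97 and 6.20. For the related cap-binding gene Eif4e2, whose protein represses certain messages, the difference was −0.11 (adjusted p = 0.298). Eif4e3, another cap-binding relative, had log2 signals of 7.67, 7.79 and 7.63 in control and 8.12, 7.86 and 7.92 in starved arrays. It rose by 0.27 (adjusted p = 0.0295) and its other probe set by 0.43, but the difference turned to −0.16 under poly-A centring and the call was lost without control replicate 1 (adjusted p = 0.0841), control replicate 3 (adjusted p = 0.0988) or starved replicate 1 (adjusted p = 0.0801). It was also lost with a further quantile normalization (adjusted p = 0.0584) and with centring by array medians (adjusted p = 0.0523).

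Both cytosolic helicases of the cap complex moved, in opposite directions. The eIF4A proteins unwind structure near the cap so that the small subunit can land. Eif4a1 had log2 signals of 12.98, 13.03 and 13.01 in control and 12.74, 12.69 and 12.74 in starved arrays. It fell by 0.28 (SE 0.07, adjusted p = 0.00594), with groups that did not overlap. Eif4a2 went from 11.50, 11.37 and 11.45 to 12.02, 11.99 and 12.15. All starved arrays lay above all control arrays and Eif4a2 rose 1.53-fold (difference 0.61, SE 0.07, adjusted p = 0.000105), although under poly-A centring the difference was 0.19 and the call was lost (adjusted p = 0.113). Of the other 2 probe sets of Eif4a1 one fell by 0.33 and the other gave −0.11 without passing.

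The measured scaffold and helper genes of the cap complex did not pass at their brightest probe sets. Eif4g1, a further scaffold gene, was not analysed here. Eif4g3, a scaffold that joins cap, helicase and eIF3, gave 0.13 (adjusted p = 0.270). Eif4g2, a relative that lacks the eIF4E-binding part, gave −0.14 (adjusted p = 0.128), and its groups did not overlap. It fell with centring by array medians (−0.19, adjusted p = 0.0403) and with limma's trend and robust options (adjusted p = 0.0235). Eif4h, a helper of the helicase, gave 0.10, and Eif4enif1, which carries eIF4E between compartments, gave 0.01. Eif4b, another helper of the helicase, had log2 signals of 12.29, 12.31 and 12.19 in control and 12.13, 12.23 and 12.15 in starved arrays. The groups of Eif4b overlapped and its brightest probe set did not pass (−0.09, 95% confidence interval −0.25 to 0.07). Its dimmer probe sets gave −0.20, which did not pass, and −0.51 (adjusted p = 0.00175 over all probe sets), and the mean of the 3 fell by 0.27 (adjusted p = 0.0120).

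**Figure D3:**
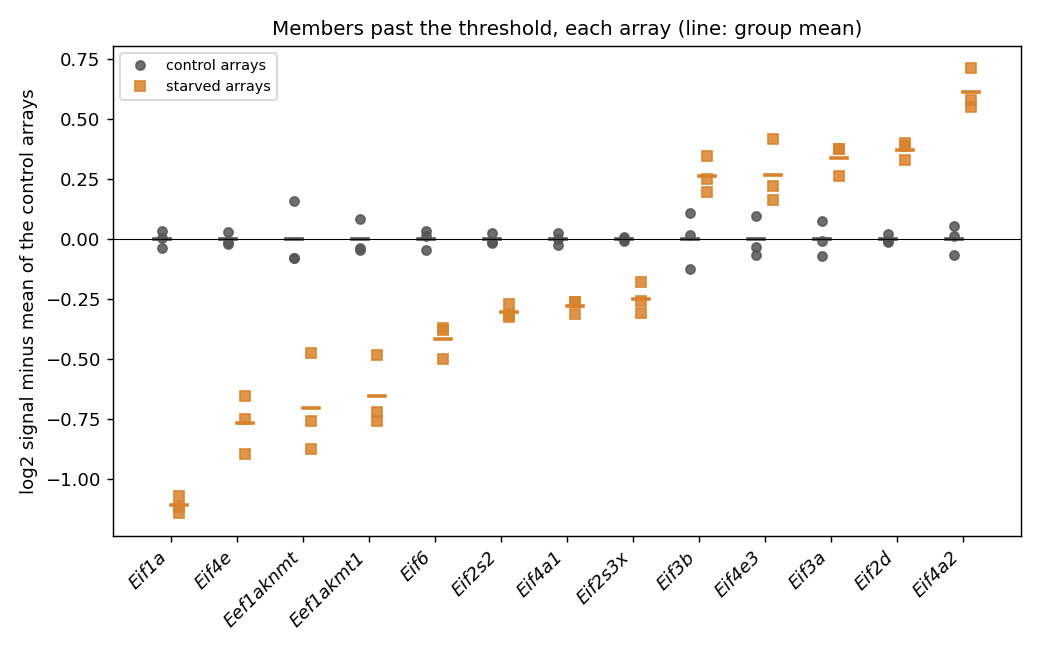
For the 13 called members the plot gives the log2 signal of each array minus the mean of the control arrays, with circles for control, squares for starved arrays and bars for group means. The 13 were picked by their test on these same arrays. The groups of all 13 are separate, as are those of 54.0% of all genes. Eif1a lies at one end (−1.11) and Eif4a2 at the other (0.61).

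Promoter sequences from RefSeq (GRCm38.p6; 250 bases before to 50 after each annotated start) were matched by symbol for 35 of the 44 members. The letters CACGTG, an E-box to which MYC and related factors can bind and which reads the same on both strands, occurred in a window of 11 of the 35 (31.4%) and of 10.8% of the 9887 measured genes with a window. Median GC content was 62.7% in the members' windows and 59% in those of the measured genes, and genes with several starts had several windows. Of the 5 fallen members with a window 3 held the letters (Eif4e, Eif4a1 and Eef1aknmt), as did 1 of 4 risen (Eif3a) and 7 of 26 that did not pass, among them Eef2. The letters are a match and not a measured binding site. The stretches below are shown to set the fallen factors Eif4e and Eif4a1 beside Eef2, which did not pass, with the 6 matching bases in capitals, 5′ to 3′ on the strand of the gene. They lie at chr3:138527028-138527057 (plus) and chr3:138527192-138527221 (plus) for Eif4e, at positions −228 and −64 from the downstream of its listed starts, at chr11:69672595-69672624 (minus) for Eif4a1, at position −189, and at chr10:81176576-81176605 (plus) for Eef2, at position −43.
Eif4e distal: ctcgccagcgacCACGTGatcacttttttt
Eif4e proximal: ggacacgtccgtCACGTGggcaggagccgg
Eif4a1: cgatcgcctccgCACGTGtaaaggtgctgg
Eef2: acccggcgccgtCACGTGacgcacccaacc

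Of the factors that deliver the initiator tRNA, transcripts of eIF2 itself showed small falls. Of the 7 genes of eIF2, its exchange factor eIF2B and the partner eIF5 none rose, 2 fell and 5 did not pass. Their median was −0.13, and the called share was 28.6%, against 44.1% of all genes. Eif2s2 encodes the beta subunit of eIF2. Its log2 signals were 12.60, 12.60 and 12.64 in control and 12.29, 12.29 and 12.34 in starved arrays. Eif2s2 fell by 0.30 (SE 0.07, adjusted p = 0.00375), and 4 of its 6 probe sets fell. Eif2s3x, the gamma subunit that holds GTP and the tRNA, went from 12.04, 12.04 and 12.03 to 11.73, 11.78 and 11.86. It fell by 0.25 (adjusted p = 0.0139), as did all 3 of its probe sets, the third by 0.61. The groups of both subunits were separate. Eif2s1, the alpha subunit that stress kinases phosphorylate, was not analysed here.

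eIF2B exchanges the nucleotide on eIF2 and is the step that phosphorylated eIF2 blocks. None of its 4 measured subunits passed: Eif2b2 gave −0.17, Eif2b4 −0.13, Eif2b5 −0.07 and Eif2b1 −0.01. Eif2b2 fell without starved replicate 1 (−0.23, adjusted p = 0.0438), and Eif2b2 and Eif2b4 fell with centring by array medians (−0.22 and −0.18). Eif2b5, the catalytic subunit, had log2 signals of 9.95, 9.91 and 9.81 in control and 9.82, 9.87 and 9.78 in starved arrays. The groups of Eif2b5 overlapped, and the 95% confidence interval of its difference ran from −0.23 to 0.09. Eif5, which triggers GTP hydrolysis by eIF2, gave −0.09 at its brightest probe set without passing. Of its other 3 probe sets 1 fell, by 0.40 (adjusted p = 0.00629 over all probe sets), and the others gave 0.09 and −0.22.

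The start of Eif2s3x is shown because it has the form of a terminal oligopyrimidine tract, a C followed by pyrimidines that marks many messages of the translation machinery for control by mTORC1. Such a start, taken as C and at least 4 pyrimidines after it, stood at the annotated start of 2 of the 35 members (5.71%), Eif2s3x, which fell, and the eIF3 subunit Eif3f, which did not pass, and of 3.03% of the measured genes with a window. The match depends on the annotated start, so a member without a match here may still have such a tract. The stretches are chrX:94212632-94212661 (minus) and chr7:108934405-108934434 (plus), with the tract in capitals.
Eif2s3x: gagcattttcCTTTTCTCTCCgagcaagat
Eif3f: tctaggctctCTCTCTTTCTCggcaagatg

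eIF3, the large scaffold on the small subunit, passed the test in few of its subunits. Of 11 genes 2 rose, none fell and 9 stayed short of the threshold, a called share of 18.2% against 44.1% of all genes. The median was 0.01. Eif3a, the core subunit around which the complex is built, had log2 signals of 11.47, 11.41 and 11.56 in control and 11.74, 11.85 and 11.86 in starved arrays. The groups of Eif3a were separate and it rose by 0.34 (SE 0.07, adjusted p = 0.00401). A further probe set of Eif3a rose by 0.41, whereas 2 others gave 0.20 and −0.16 without passing, and averaging all 4 ended the call (0.20, adjusted p = 0.174). Eif3b, a subunit that binds Eif3a, went from 10.48, 10.38 and 10.24 to 10.62, 10.71 and 10.56. It rose by 0.26 (adjusted p = 0.0253), a call lost without control replicate 2 (adjusted p = 0.0576), control replicate 3 (adjusted p = 0.105) or starved replicate 2 (adjusted p = 0.0847). Under poly-A centring the difference of Eif3a was −0.088 and that of Eif3b −0.16.

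The 9 other eIF3 subunits lay between −0.06 (Eif3l) and 0.12 (Eif3d), with adjusted p between 0.169 and 0.951. Eif3c and Eif3d had groups that did not overlap, with starved arrays above control arrays by 0.12 for each. Eif3c passed with limma's trend and robust options (adjusted p = 0.0453). Eif3e, Eif3f, Eif3h, Eif3i, Eif3k, Eif3l and Eif3m overlapped between groups. For Eif3e, one of the brightest at 13.08 ± 0.03 in control and 13.09 ± 0.07 in starved arrays, the 95% confidence interval ran from −0.15 to 0.16.

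The remaining initiation factors held the largest single change. Of 6 genes 1 rose, 2 fell and 3 did not pass, a called share of 50% against 44.1% of all genes. The median was −0.04. Eif1a belongs to the eIF1A proteins, which open the small subunit for scanning. Its log2 signals were 10.04, 10.11 and 10.08 in control and 9.01, 8.93 and 8.96 in starved arrays. The starved arrays lay close together and far below the control arrays, and Eif1a fell 2.16-fold (difference −1.11, SE 0.07, adjusted p = 1.09e-06). Its other probe set fell by 1.21. The probe set used is of a type that can bind several transcripts, and a further probe set that lists Eif1a with 2 other symbols was left out, so signal from near-identical gene copies cannot be told apart from that of Eif1a.

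The X-linked relative Eif1ax, which encodes the main eIF1A protein, went from 10.95, 10.90 and 10.97 to 10.96, 10.93 and 10.95. Its groups overlapped (difference 0.01, 95% confidence interval −0.14 to 0.15). Eif6, which keeps the large subunit from joining too early and takes part in making it, had log2 signals of 10.78, 10.76 and 10.70 in control and 10.38, 10.37 and 10.25 in starved arrays. Eif6 fell by 0.42 (SE 0.07, adjusted p = 0.000893). Eif2d, which can deliver tRNA to the ribosome without eIF2 and acts in re-initiation, went from 9.17, 9.16 and 9.19 to 9.57, 9.56 and 9.50. It rose by 0.37 (SE 0.07, adjusted p = 0.00113), and 3 of its 4 probe sets rose, with a mean over all 4 of 0.24 (adjusted p = 0.0137), although under poly-A centring the difference was −0.054. Eif1b, a relative of the start codon selector eIF1, gave −0.08 without passing. Eif5b, which joins the subunits, gave 0.22 without passing (adjusted p = 0.149), with a starved range from 8.65 to 9.06 around control values of 8.56 to 8.78, and its dimmest probe set fell by 0.42. Without starved replicate 3 the brightest probe set of Eif5b rose by 0.36 (adjusted p = 0.0126).

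In most of the 5 pairs of related factors the difference between both genes shifted. This comparison within arrays does not depend on how an array was centred. The log2 difference between both genes of a pair was compared between groups in 5 pairs with an exact two-sided permutation test over 3 against 3 arrays, whose smallest p is 0.1. The pair of Eif4e with Eif4e3 was added after their values were seen. Eif4a1 minus Eif4a2 was 1.48, 1.66 and 1.55 in control and 0.72, 0.70 and 0.59 in starved arrays. This is a shift of −0.89, with groups that did not overlap (exact p = 0.1, adjusted over the 5 pairs 0.125). Eif1a minus Eif1ax shifted by −1.12, Eif4e minus Eif4e2 by −0.66 and Eif4e minus Eif4e3 by −1.04, each with separate groups and the same exact p. Eef1a1 minus Eef1a2 shifted by 0.08, with overlapping groups (exact p = 0.4). The design cannot reach 0.05 in this test. Groups were separate for 54.0% of all single genes, and the share over other pairs of genes was not counted.

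**Figure D4:**
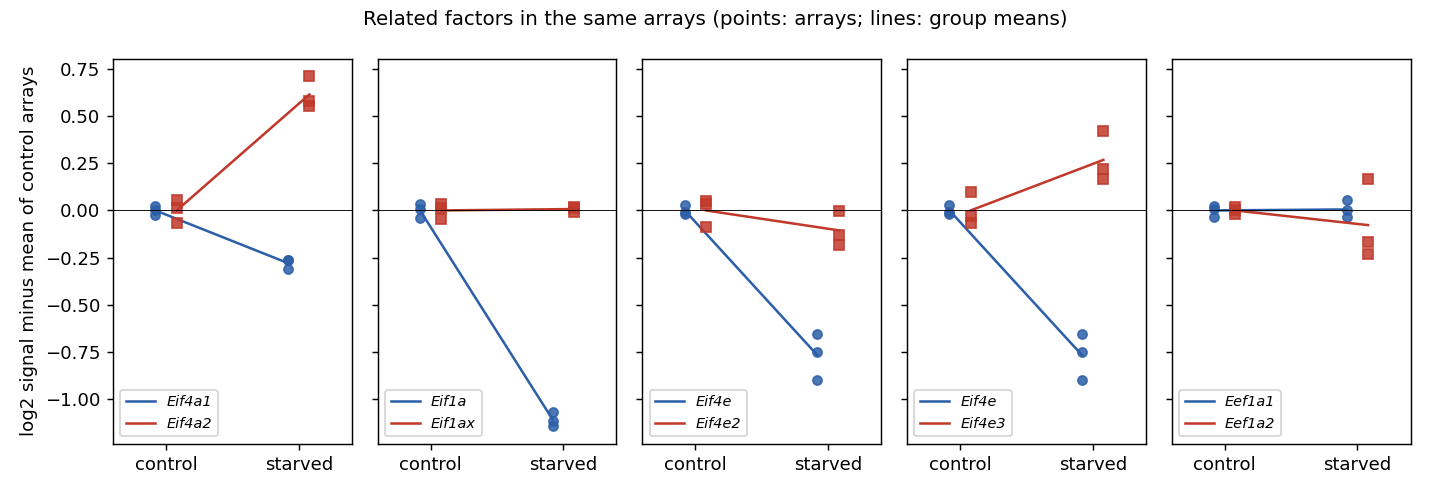
In each panel the log2 signal minus the mean of the control arrays is plotted for both genes of a pair, with 3 arrays per group as points and group means joined by lines. Eif4a1 and Eif4a2 diverge by −0.89, Eif1a changes by −1.11 beside a flat Eif1ax, and Eef1a1 and Eef1a2 overlap between groups.

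None of the 6 elongation factors passed in the deposited values at their brightest probe sets, with limma. The called share over all genes was 44.1%. All 6 lay between −0.09 (Eif5a) and 0.02 (Eef1b2), with a median of 0.00 and adjusted p between 0.305 and 0.961. At an unadjusted p under 0.05 the count was 0 as well, the lowest being 0.209. Poly-A centring gave falls in 6 of 6, against 75.2% of all genes. Hybridization spike-in centring gave falls in 2, against 49.2% of all genes. Eef1a1 encodes the protein that delivers charged tRNAs. Its log2 signals were 14.26, 14.30 and 14.32 in control and 14.26, 14.29 and 14.35 in starved arrays. The groups of Eef1a1 overlapped, and the 95% confidence interval of its difference ran from −0.14 to 0.15. Eef2, which moves the ribosome along, went from 13.32, 13.29 and 13.30 to 13.37, 13.34 and 13.23, with an interval from −0.14 to 0.17. Only 3 genes on the arrays were brighter than Eef1a1, and the highest signal of an array lay between 14.52 and 14.59. Whether changes are compressed at such levels was not tested, so these values do not show that the transcripts held steady. Among the members above 12 in control arrays 3 of 13 were called, and 10 of the other 31, against 44.1% of all genes at any level. The shares of all genes above and below 12 were not counted, so this split does not bear on compression.

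Eif5a, whose protein carries the modified residue hypusine and helps at difficult peptide bonds, went from 13.18, 13.18 and 13.11 to 13.06, 13.09 and 13.06. The starved arrays of Eif5a all lay below the control arrays, but the difference of −0.09 did not pass (adjusted p = 0.305). Its second probe set gave −0.22 (adjusted p = 0.0503 over all probe sets), and averaging both left it short of the threshold (−0.15, adjusted p = 0.0761). Eef1b2 and Eef1d recharge eEF1A with GTP and gave 0.02 and −0.01. The brightest probe set of Eef1d had log2 signals of 11.86, 11.78 and 11.76 in control and 11.83, 11.82 and 11.73 in starved arrays. A dimmer one went from 8.62, 8.55 and 8.50 to 7.95, 7.74 and 7.74. It fell by 0.75 (SE 0.08), so the probe sets of Eef1d disagreed, and the mean of its 3 probe sets fell by 0.23 (adjusted p = 0.0173). Eef1a2, the form of nerve and muscle, lay at 6.83 ± 0.02 in control and 6.75 ± 0.21 in starved arrays. Without starved replicate 3 it fell by 0.20 (adjusted p = 0.0498).

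**Figure D5:**
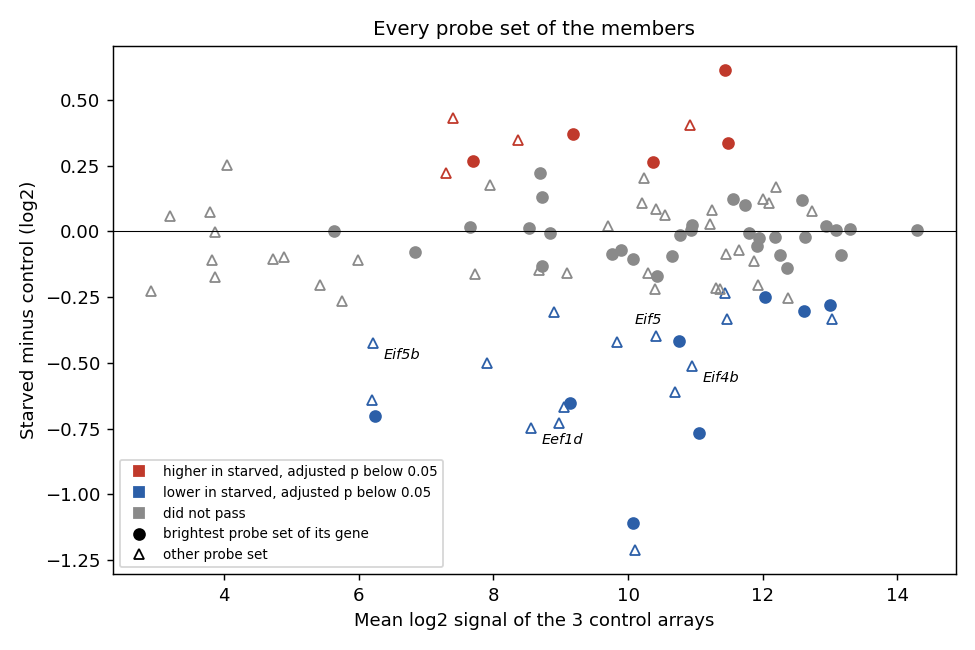
Each of the 99 probe sets of the members is plotted by its mean log2 signal in control arrays (horizontal) and its starved minus control difference (vertical), with filled circles for the brightest probe set of a gene and open triangles for the others. Dimmer probe sets of Eef1d, Eif4b, Eif5 and Eif5b fell although the brightest of each did not pass.

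Across all probe sets, 9 of the 99 rose and 23 fell when each was tested on its own, against 40.9% of all probe sets called. Of the 25 members with several probe sets, 0 had one that rose beside one that fell. In 4 members, Eef1d, Eif4b, Eif5 and Eif5b, a dimmer probe set fell although the brightest did not pass.

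Enzymes that modify the elongation factors fell or did not pass. Of 4 genes 2 fell, a called share of 50% against 44.1% of all genes. Eef1akmt1, a lysine methyltransferase of eEF1A, had log2 signals of 9.22, 9.09 and 9.10 in control and 8.66, 8.42 and 8.38 in starved arrays. Eef1akmt1 fell 1.57-fold (difference −0.65, SE 0.09, adjusted p = 0.000213), and 3 of its 4 probe sets fell. Eef1aknmt, which methylates eEF1A at its N-terminus and a lysine, went from 6.17, 6.16 and 6.40 to 5.48, 5.77 and 5.37. It fell by 0.70 (SE 0.11, adjusted p = 0.000577). The groups of both genes were separate. Eef1aknmt rests on 1 probe set and was among the dimmest 40% of genes. With those genes left out, 5 of the remaining 42 members rose and 7 fell, against 2681 higher and 2205 lower of all 7436 remaining genes. Eef2k, the kinase that inactivates eEF2, had log2 signals of 7.62, 7.70 and 7.65 in control and 7.82, 7.63 and 7.57 in starved arrays. It did not pass (0.02, 95% confidence interval −0.16 to 0.20), nor did Eef2kmt, the methyltransferase of eEF2 (0.00).

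Genes that act on these factors but lie outside the symbol rule were read from 2 lists. Of 16 measured regulators 1 rose, 8 fell and 7 did not pass, a called share of 56.3% against 44.1% of all genes, with a median of −0.19. Eif2ak2, the interferon-inducible eIF2 kinase PKR, was the one that rose, by 0.83 (adjusted p = 3.82e-05). Ppp1r15b, the constitutive subunit of the eIF2 phosphatase, fell from 9.75 ± 0.05 to 8.92 ± 0.05. Impact, an inhibitor of the eIF2 kinase GCN2, fell by 0.68, and Eif2ak4, which encodes GCN2, by 0.48. Larp1, which binds oligopyrimidine messages, fell by 0.39. Ppp1r15a, the stress-induced phosphatase subunit, fell by 0.26, a call lost without control replicate 1 (adjusted p = 0.0541). Eif4ebp1, the inhibitor of eIF4E, did not pass (11.49 ± 0.07 and 11.36 ± 0.09, difference −0.14, adjusted p = 0.171), although the mean of its probe sets fell by 0.18.

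Among 19 partners of the machinery 5 rose, 6 fell and 8 did not pass (57.9% called, against 44.1% of all genes). The median was −0.09 (all genes −0.05). Paip2, an inhibitor of the poly(A)-binding protein, went from 11.10, 11.13 and 11.15 in control to 11.96, 11.88 and 11.94 in starved arrays. Paip2 rose 1.74-fold (difference 0.80, SE 0.07, adjusted p = 8.83e-06), also under poly-A centring (0.37). Its relative Paip2b rose by 0.43, a call lost under that centring (0.01). The poly(A)-binding protein gene Pabpc1 did not pass (14.06 ± 0.02 and 14.07 ± 0.04), at a level near the top of the arrays. The mean of its 2 probe sets gave −0.24, also without passing (adjusted p = 0.101 with limma). Eefsec, the elongation factor for selenocysteine, rose by 0.31 and Mcts1, a re-initiation factor, by 0.26, but these turned to −0.12 and −0.16 under poly-A centring, and Mcts1 lost its call without control replicate 2 (adjusted p = 0.0662). Pelo, which rescues stalled ribosomes, fell by 0.72, the termination factors Etf1 and Gspt1 by 0.59 and 0.42 (the mean of the 5 Etf1 probe sets fell by 0.27), and Eef1e1 by 0.78.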

How the data were processed

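Gene expression was measured in 6 samples with 1-colour short-oligonucleotide arrays. The authors deposited log2 values, 1 per probe set and array, made with affy and RMA per the submitters' processing notes (no version is given in the sources used here). This procedure corrects background, equalises the distributions of the arrays and summarises probes, which removes changes in total messenger RNA. Of 22690 probe sets 20380 had 1 symbol in the platform annotation, 691 several, 1555 none listed and 64 were controls. A gene took its brightest probe set over all arrays, with no filter on dim genes. Groups came from the titles. limma 3.58.1 in R 4.3.3 (lmFit, eBayes, no covariate) tested all 12393 genes; the fit was tested on simulated data. Arrays hold no read depth, so their number limits the precision. Same-numbered samples did not deviate together (correlations of deviations −0.022 to 0.0021), so the numbers were not treated as pairs. The members, families and lists were chosen with earlier results of these data known, and no list was given a test of its own. Every member could be named; values in each array are given for fixed genes and, per family, up to 2 of the largest called rises and falls, and the 2 outer lists name up to 4 genes per direction by adjusted p beside fixed ones. Members shown beyond this were chosen after their values were seen. Alternatives were other ways of choosing probe sets, scaling, filtering, moderating and thresholding, the replicate block, and leaving out each array. Python 3.11.15, pandas 2.3.3 and matplotlib 3.10.9 handled tables and plots.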

Additional observations from a re-analysis of the deposited data

Results flagged for a closer look

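Control probe sets outside the comparison differed between the groups. The mean of the 24 poly-A spike-in probe sets lay between 7.41 and 7.43 in control and between 7.76 and 7.96 in starved arrays, 0.43 higher in starved arrays. The mean of the 18 hybridization spike-in probe sets was 0.19 higher, at 10.12 to 10.14 in control and 10.26 to 10.37 in starved arrays. For both, the exact two-sided permutation p over 3 against 3 arrays was 0.1, the smallest it can give.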

How the results depend on the processing

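The numbers of the labels were also used as a replicate block: 5 members rose and 8 fell, and 5274 of all genes were called, which changed no call of a named gene. Centring on the poly-A spike-ins gave 10181 called genes, 0 risen and 38 fallen members and medians of −0.56 (eIF2 and its exchange factor), −0.42 (eIF3), −0.47 (eIF4), −0.47 (other initiation factors) and −0.43 (elongation factors). It turned the sign of Eif2d (−0.054), Eif3a (−0.088), Eif3b (−0.16), Eif4e3 (−0.16), Eefsec (−0.12) and Mcts1 (−0.16). None of these passed as a fall there, with adjusted p between 0.141 and 0.617 with limma. The hybridization spike-ins gave 1 risen and 21 fallen members and medians of −0.32, −0.18, −0.23, −0.23 and −0.19 in the same order. Centring on the array median gave −0.18 (eIF2 and its exchange factor), −0.044 (eIF3), −0.089 (other initiation factors) and −0.050 (elongation factors). These shifts follow from subtracting 1 value per array. A further quantile normalization gave −0.18 for eIF2 and its exchange factor, and the mean of probe sets −0.036 for elongation factors; the cause was not tested. An adjusted p below 0.01 left 3 risen members. Testing each probe set gave 9 risen and 23 fallen of 99, and 8339 called in all, as more features were tested.

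Leaving out each array in turn gave 4541 to 5317 called genes, 3 to 6 risen and 8 to 9 fallen members. Medians ranged from −0.16 to −0.10 for eIF2 and its exchange factor, −0.021 to 0.031 for eIF3, −0.06 to 0.01 for eIF4, −0.06 to −0.02 for other initiation factors and −0.01 to 0.00 for elongation factors. The shifts between related genes ranged from −0.93 to −0.85 (Eif4a1 and Eif4a2), −0.73 to −0.62 (Eif4e and Eif4e2), −1.14 to −1.08 (Eif1a and Eif1ax), −1.12 to −0.97 (Eif4e and Eif4e3) and 0.03 to 0.18 (Eef1a1 and Eef1a2). With 3 arrays per group, the 31 members not called had differences between −0.17 and 0.22.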
